A study of Mus musculus with 6 samples.

Results

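The genes described here are 48 listed names of the machinery of mitosis and of the spindle checkpoint. Kinesins were left aside but for the kinetochore motor Cenpe. The genes were compared between injured and sham-operated mouse spinal cord. They were chosen by gene name: 47 of the 48 names had a row among the 36629 genes of the deposited files, and the remaining name, "Anln-like", matched no row and has no value here. Pieces of C57/BL6 mouse cord covering segments T8 to T12 were taken on day 3 after surgery and measured by bulk RNA-seq. In the SCI group (spinal cord injury, 3 libraries), laminectomy (opening of the vertebral arch) was followed by a short crush of the cord with a clip. The sham group (3 libraries) had the laminectomy alone, although one of its labels reads "untreated". Both groups were wild-type animals aged 3 to 5 weeks, so the sham cord came from young mice. Whether each library is 1 mouse or a pool is not stated, and p-values therefore measure only the spread between these libraries. The stated aim was to find how the transcriptome of the lesion centre differs from that of uninjured mice.

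Levels are the authors' FPKM, fragments scaled by gene model length and by the library's fragments, and a level can be compared between genes because it is per length. The depth behind them is unknown. FPKM summed to 716215 to 734791 per library, and 16774 to 17202 genes reached 1 FPKM. On log2(FPKM + 1), libraries correlated with r of 0.971 to 0.985 within the SCI group and 0.987 within the sham group, against 0.839 to 0.907 between the groups. SCI replicate 2 stood apart in blood content: haemoglobin genes took 0.656%, 6.16% and 0.211% of the FPKM in SCI replicates 1, 2 and 3, against 0.109% to 0.126% in the sham libraries. The cord label was borne out by 9 of 9 neuron markers, which were detected in every library, though lower in SCI.

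A cell enters mitosis when Cdk1 bound to a cyclin is switched on by Cdc25 phosphatases. Condensin then compacts the chromosomes, kinetochores built on the centromere bind spindle microtubules, and the spindle checkpoint holds the cell until every chromosome is attached. Release of the checkpoint lets Cdc20 activate the anaphase-promoting complex, a ubiquitin ligase that destroys the cyclins and securin, so that separase can cut cohesin and the cell can divide by cytokinesis. Most of these genes are transcribed late in the cell cycle, through promoters that carry CCAAT boxes for the factor NF-Y and a cell cycle homology region (CHR), an element bound by the DREAM and MuvB complexes. Neurons and mature oligodendrocytes do not divide, whereas microglia, astrocytes, oligodendrocyte precursors, ependymal cells, fibroblasts and endothelial cells are known to divide after cord injury.

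Promoters are shown first because these letters are what many of the genes share besides their function. RefSeq's table for GRCm38.p6 held 41 promoter windows for 39 of the 47 genes, each of 300 bases, 250 before and 50 after the annotated start. Prc1 and Ect2 had a pair of overlapping windows each. The 4 printed here belong to the genes with the largest log2 change among those whose window holds both kinds of letters. They are written 5′ to 3′ on the strand of the gene, and capitals mark CHR letters (TTTGAA or TTCGAA, or TTCAAA on the other strand) and CCAAT letters (CCAAT or, on the other strand, ATTGG). Top2a lies at chr11:99024140-99024439 on the minus strand, Mki67 at chr7:135716330-135716629 on the minus strand, Ccnb2 at chr9:70421505-70421804 on the minus strand and Ube2c at chr2:164769679-164769978 on the plus strand.
Top2a: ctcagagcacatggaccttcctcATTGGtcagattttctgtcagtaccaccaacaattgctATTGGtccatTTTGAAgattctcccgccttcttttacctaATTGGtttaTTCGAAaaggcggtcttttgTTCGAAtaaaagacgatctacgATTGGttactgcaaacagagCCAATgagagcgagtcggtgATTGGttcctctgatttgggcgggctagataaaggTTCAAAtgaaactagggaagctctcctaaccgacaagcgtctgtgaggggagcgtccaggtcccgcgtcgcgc
Mki67: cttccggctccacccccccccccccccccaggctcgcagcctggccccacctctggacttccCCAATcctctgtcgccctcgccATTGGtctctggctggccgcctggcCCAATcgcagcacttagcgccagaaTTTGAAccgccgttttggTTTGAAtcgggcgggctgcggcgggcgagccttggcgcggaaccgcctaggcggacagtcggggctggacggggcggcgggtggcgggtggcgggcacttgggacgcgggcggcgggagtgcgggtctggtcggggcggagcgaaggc
Ccnb2: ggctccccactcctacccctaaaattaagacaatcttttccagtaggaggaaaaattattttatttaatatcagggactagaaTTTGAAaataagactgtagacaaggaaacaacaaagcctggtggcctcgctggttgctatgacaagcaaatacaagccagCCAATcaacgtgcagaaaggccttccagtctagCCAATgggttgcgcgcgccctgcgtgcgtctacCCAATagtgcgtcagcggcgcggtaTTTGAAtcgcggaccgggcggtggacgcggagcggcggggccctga
Ube2c: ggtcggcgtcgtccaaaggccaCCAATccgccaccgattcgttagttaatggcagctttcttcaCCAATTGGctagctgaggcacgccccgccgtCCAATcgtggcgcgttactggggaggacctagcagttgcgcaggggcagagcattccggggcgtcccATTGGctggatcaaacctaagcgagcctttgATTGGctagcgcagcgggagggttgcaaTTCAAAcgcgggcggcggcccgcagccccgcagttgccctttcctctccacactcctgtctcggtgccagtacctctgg

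The Top2a window held 4 CHR matches and 6 CCAAT matches, and the CHR match closest to the start began at position -23, counted from the start. In the Mki67 window, 3 CCAAT matches lay upstream of 2 CHR matches, the nearer of which began at -98. Ccnb2 had 3 CCAAT matches, at -87, -54 and -21, followed by a CHR match at 5, just after the annotated start, and a further CHR match at -167. That start was not found at the start of a GENCODE M21 transcript, so whether the match at 5 is transcribed is not settled. Ube2c had 1 CHR match at -29 and 6 CCAAT matches, of which those at -186 and -183 overlap each other because the letters CCAATTGG read on both strands. In all 4 windows a CCAAT match lay upstream of the CHR match nearest to the start.

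Searched on both strands, CHR letters (TTTGAA or TTCGAA) were present in 30 of the 41 windows, or 73.2%, against 13.6% of 15184 windows of the genes tested, 16.0% of 4096 windows of genes higher in SCI and 19.2% of all 32851 windows. Between 50 bases before and 50 after the start, they were present in 27 windows (65.9%), against 3.45% of the windows of genes tested. CCAAT was present in 32 windows (78.0%), against 37.5%, and at least 2 times in 21 (51.2%), against 13.4%. Both kinds of letters stood together in 29 windows (70.7%), against 5.53% of the windows of genes tested. TATAAA was in 0 of the 41 windows, against 7.47%. Neither kind of letters was found in the windows of Birc5, Ncaph, Nusap1, Nuf2, Mybl2, Mad2l1, Plk4 and Pttg1, which says only that these letters are not in this stretch. Of the 41 annotated starts, 28 fell at the start of a GENCODE M21 transcript, so a window can miss the start used in the cord. These shares describe the windows, and no factor's binding was measured.

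**Figure D1:**
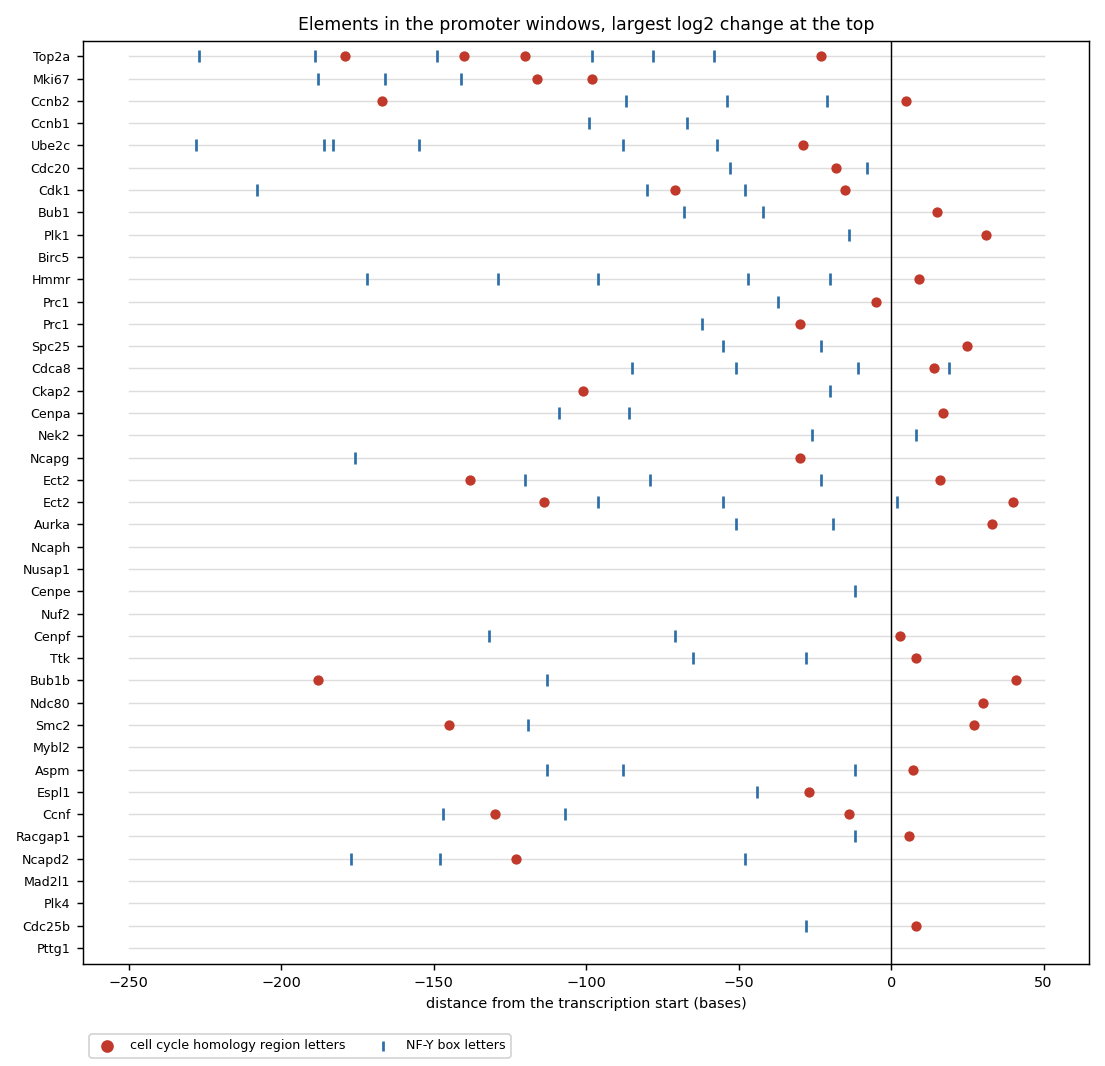
Positions of CHR letters (red circles) and CCAAT letters (blue ticks, marked as NF-Y box letters) in the 41 promoter windows, with the distance of the first base from the annotated start on the horizontal axis in bases and 1 window per line, ordered by log2 change. Red circles gather close to the start: 27 windows have one between 50 bases before and 50 after it.

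Nearly all of the mitotic genes were higher in the injured cord. Of the 47 genes, all of which met the level filter (1 FPKM or more in 3 or more of the 6 libraries), 46 were higher in SCI and 1, Pttg1, was lower, by limma on log2(FPKM + 1) with Benjamini-Hochberg adjustment and a threshold of 0.05. The background of this comparison is broad: 57.5% of the 17435 genes tested were called, 26.7% higher and 30.8% lower. The median log2 change was 2.48 over the 47 genes, against -0.08 over all genes tested and 0.84 over the genes called higher. A log2 change of at least 1 was seen in 45 of them, against 11.0% of all genes tested, and of at least 2 in 34, against 3.48%. All 3 SCI libraries lay above all 3 sham libraries for 46 genes, against 30.7% of all genes tested, and below them for Pttg1, against 36.9%.

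The level filter bears on these counts. In the sham cord 26 of the genes were under 1 FPKM in all 3 libraries and met the filter only through the SCI libraries. Their SCI libraries then had to lie above their sham libraries, and 97.7% of the 573 tested genes of that kind were called higher. Those 26 therefore had to differ, both in the calls and in the separation of the libraries. The other side is the 15 genes at 1 FPKM or more in all 3 sham libraries. Of these, 14 were higher, against 24.0% of 15735 such genes, and 13 were higher with a log2 change of at least 1, against 7.91%. Their calls did not depend on a silent sham group.

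**Figure D2:**
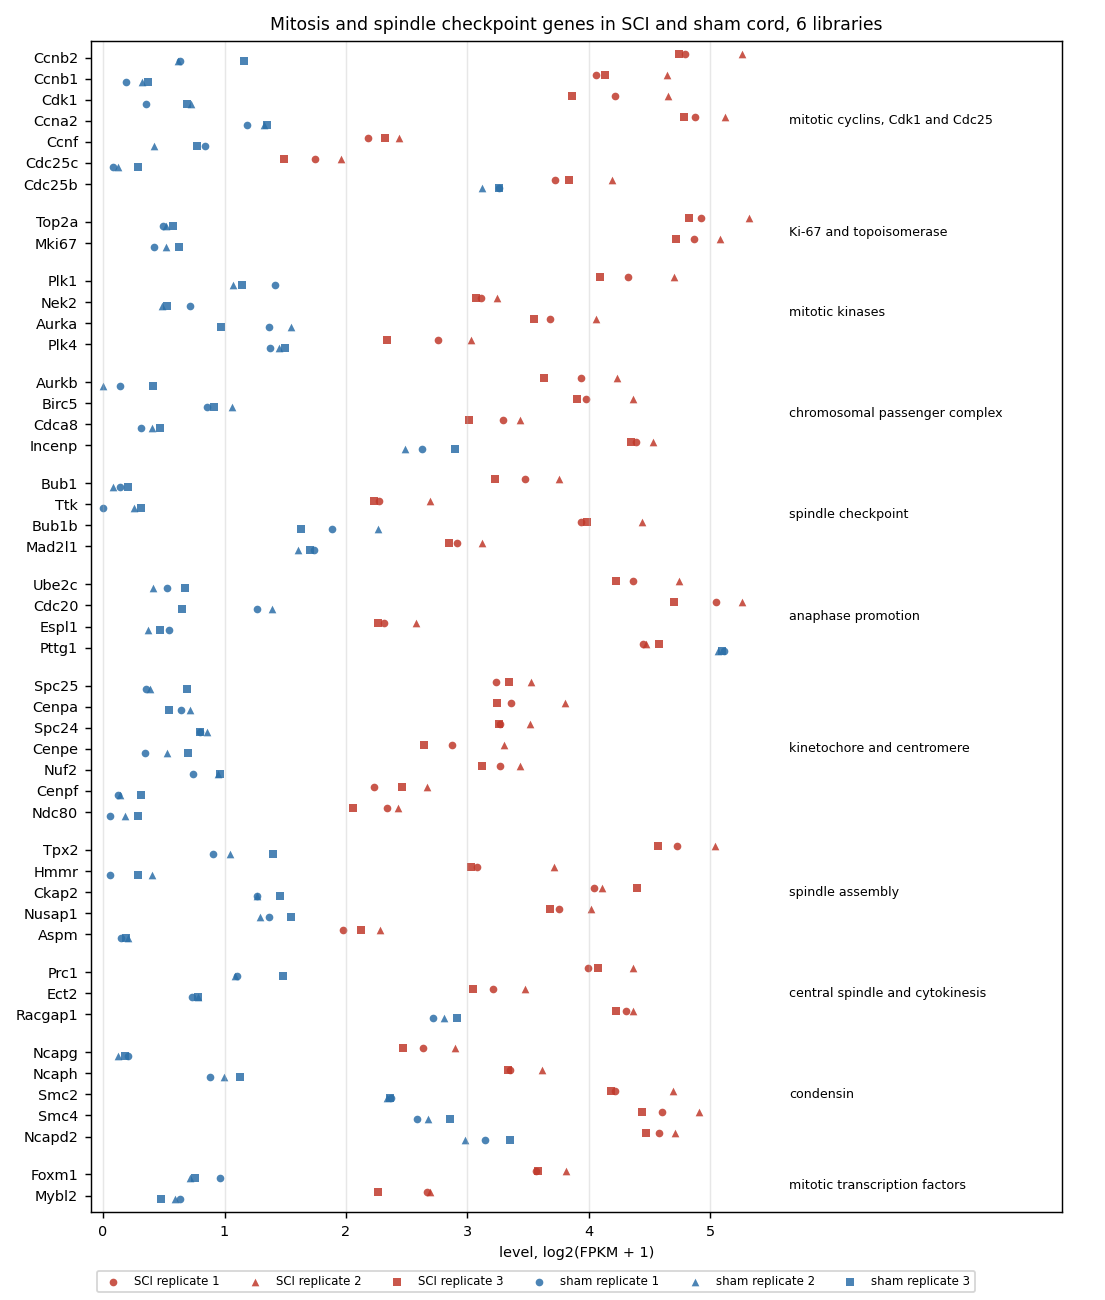
Level of each of the 47 genes in every library, as log2(FPKM + 1) on the horizontal axis, grouped by role. Red symbols are the 3 SCI libraries and blue symbols the 3 sham libraries, and SCI lies to the right of sham for all genes but Pttg1.

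Summed over the 47 genes, the level was 627, 783 and 587 FPKM in SCI replicates 1, 2 and 3, against 99.0, 98.1 and 107 FPKM in sham replicates 1, 2 and 3, a ratio of means of 6.57. The groups were far apart, with the lowest SCI sum well above the highest sham sum. Pttg1 alone made up about 33 FPKM of each sham sum, and without it the ratio was 9.46. Leaving Pttg1 out, mean levels ran from 2.35 to 31.9 FPKM in SCI and from 0.103 to 8.29 FPKM in sham. Of the 44 risers with no sham library at 0, the median fold of mean FPKM was 15.3, the lowest 1.72 and the highest 100.1, and 31 were at least 10-fold. Because these are bulk samples, more dividing cells and more RNA per dividing cell cannot be told apart, and the same holds for fewer cells and less RNA in the other direction.

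**Figure D3:**
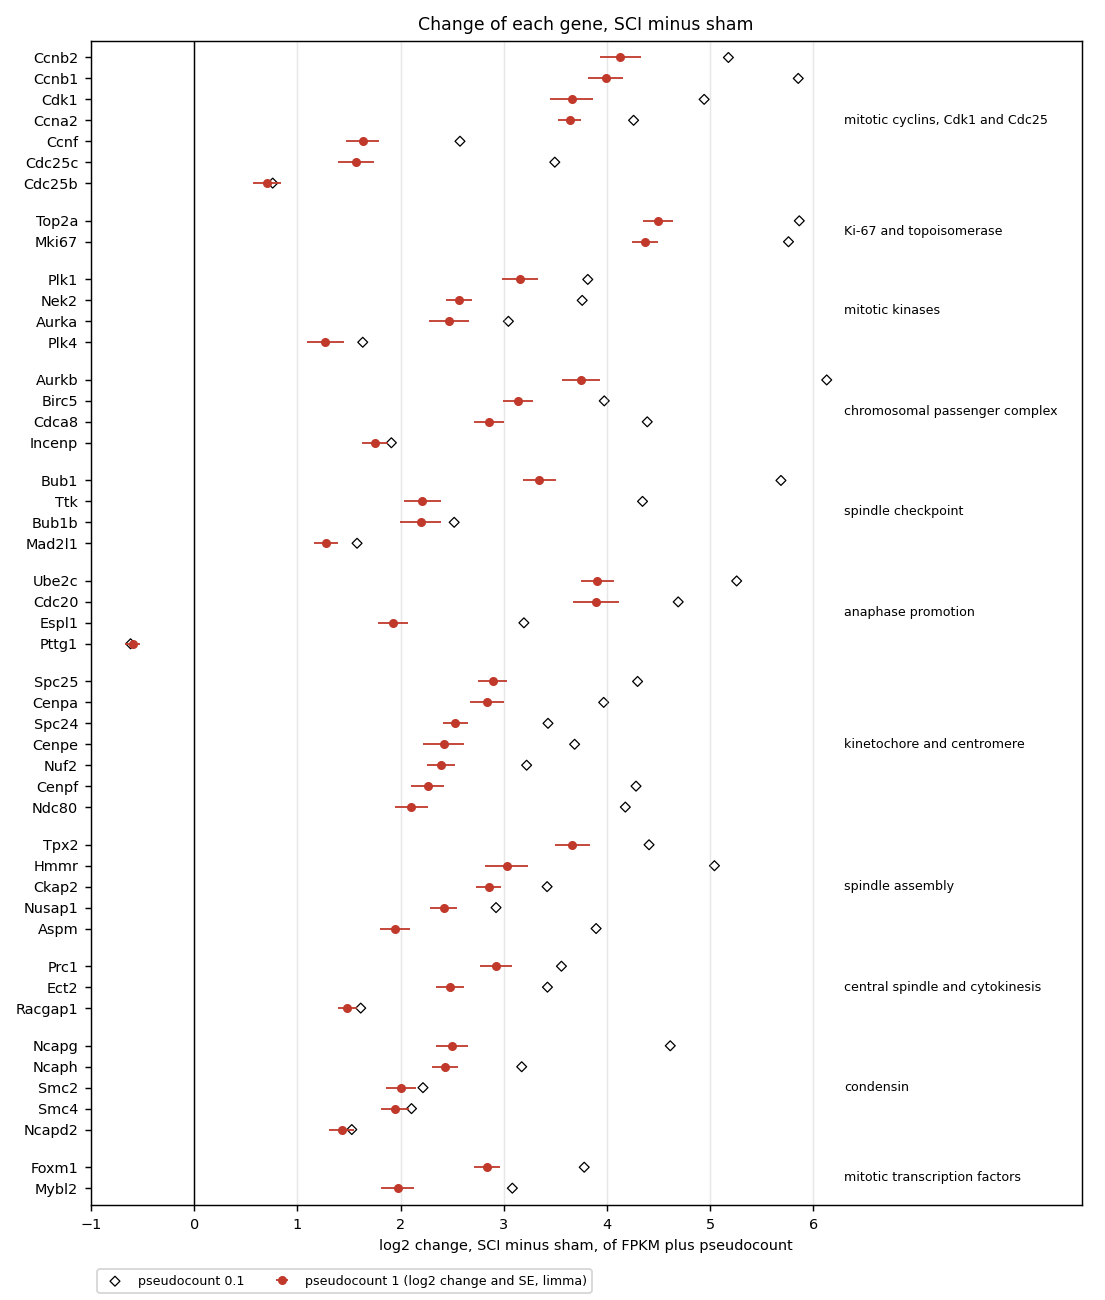
Log2 change of each gene, SCI minus sham, by role: filled points give the change of FPKM + 1 with the limma SE, and open diamonds the change of FPKM + 0.1. Every point but that of Pttg1 is right of 0, and the diamonds lie further out for genes that were near 0 in sham cord.

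The kinase and the cyclins that drive entry into mitosis rose together. All 7 of the cyclins, Cdk1 and Cdc25 genes were higher, with a median log2 change of 3.64. Ccnb2 (cyclin B2, a partner of Cdk1) had 26.7, 37.4 and 25.7 FPKM in SCI, against 0.55, 0.53 and 1.24 FPKM in sham. The log2 change was 4.13 (SE 0.20, limma adjusted p = 1.5e-05). Its groups did not overlap, and SCI replicate 2 was the highest. Ccnb1 (cyclin B1, which brings Cdk1 to its substrates at mitotic entry) had 15.7, 24.0 and 16.6 FPKM in SCI, against 0.14, 0.25 and 0.29 FPKM in sham, with a log2 change of 3.99 (SE 0.17, limma adjusted p = 1.2e-05). The sham level was close to 0 in each library. Cdk1, the kinase itself, averaged 18.5 ± 5.35 FPKM in SCI and 0.513 ± 0.203 FPKM in sham (SD, n = 3 each), a log2 change of 3.66. Ccna2 (cyclin A2, of S phase and mitotic entry) averaged 29.6 ± 3.77 FPKM in SCI and 1.45 ± 0.146 FPKM in sham, a log2 change of 3.64. These 4 genes were the strongest of the group.

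The phosphatases and cyclin F changed less. Cdc25b, which activates Cdk1 in late interphase, averaged 14.3 ± 2.68 FPKM in SCI and 8.29 ± 0.523 FPKM in sham, the smallest rise of the 46 genes (log2 change 0.70, SE 0.13, limma adjusted p = 0.0037). It was also the riser with the highest sham level. Cdc25c, the related phosphatase of mitotic entry, averaged 2.35 ± 0.535 FPKM in SCI and 0.123 ± 0.0851 FPKM in sham, a log2 change of 1.57. Ccnf, cyclin F, a ubiquitin ligase subunit that binds no Cdk, averaged 3.98 ± 0.440 FPKM in SCI and 0.613 ± 0.240 FPKM in sham, a log2 change of 1.63. Ccnb1 and Ccnb2 each have a named pseudogene in GENCODE M21, so reads could be shared with it, and their values are uncertain to that extent.

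On the log2(FPKM + 1) scale the largest changes of the 47 genes were in Top2a and Mki67, while the ratio of means was larger for Bub1 (100.1) and Ccnb1 (82.7), and with a pseudocount of 0.1 Aurkb had the largest change (log2 6.13, against 5.86 for Top2a). Top2a, the topoisomerase that untangles sister chromatids (chromosome 11, 98992943 to 99024189, minus strand, GRCm38), had 29.4, 38.9 and 27.3 FPKM in SCI, against 0.41, 0.43 and 0.49 FPKM in sham. Its log2 change was 4.49 (SE 0.14, limma adjusted p = 7.8e-06), and 22 of the genes tested had a larger one. Mki67 encodes Ki-67, which coats mitotic chromosomes and serves as the standard histological marker of cycling cells (chromosome 7, 135689784 to 135716361, minus strand). It had 28.1, 33.0 and 25.4 FPKM in SCI, against 0.34, 0.43 and 0.54 FPKM in sham, a log2 change of 4.37 (SE 0.12, limma adjusted p = 7.8e-06). The mean levels of Top2a and Mki67 were 71.9 and 66.0 times as high in SCI as in sham. Their windows are printed above, where only windows that hold both CCAAT and CHR letters were shown.

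All 4 mitotic kinases outside the passenger complex were higher. Plk1, the polo-like kinase that acts at centrosomes, kinetochores and the midbody, had 19.1, 25.0 and 16.0 FPKM in SCI, against 1.67, 1.10 and 1.21 FPKM in sham, a log2 change of 3.16 (SE 0.18, limma adjusted p = 2.2e-05). Nek2, a kinase that separates the centrosomes, had 7.63, 8.46 and 7.42 FPKM in SCI, against 0.64, 0.40 and 0.44 FPKM in sham, a log2 change of 2.57 (SE 0.12, limma adjusted p = 1.4e-05). The groups of Plk1 did not overlap, and those of Nek2 could not, because it met the level filter only through the SCI libraries. The SCI libraries agreed more closely for Nek2 than for Plk1. Aurka, Aurora A of the centrosome and spindle pole, averaged 12.7 ± 2.58 FPKM in SCI and 1.49 ± 0.491 FPKM in sham, a log2 change of 2.47. Plk4, which starts centriole duplication, averaged 5.66 ± 1.54 FPKM in SCI and 1.71 ± 0.116 FPKM in sham and had the smallest change of the 4 (log2 1.27).

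The chromosomal passenger complex corrects faulty attachments at the centromere and later steers cytokinesis, and all 4 of its genes were higher. Aurkb, its kinase Aurora B, had 14.3, 17.8 and 11.4 FPKM in SCI, against 0.10, 0.00 and 0.33 FPKM in sham. With 1 sham library listed at 0 no fold is given, and the log2 change was 3.75 (SE 0.19, limma adjusted p = 1.5e-05). Birc5, or survivin, which docks the complex on the centromere, had 14.8, 19.6 and 14.0 FPKM in SCI, against 0.81, 1.09 and 0.88 FPKM in sham, a log2 change of 3.14 (SE 0.15, limma adjusted p = 1.3e-05). For both genes the lowest SCI library was more than 10 FPKM above the highest sham library. Cdca8 (borealin, which binds survivin) averaged 8.56 ± 1.39 FPKM in SCI and 0.313 ± 0.0702 FPKM in sham, a log2 change of 2.86. Incenp, the scaffold, averaged 20.5 ± 1.42 FPKM in SCI and 5.41 ± 0.956 FPKM in sham, a log2 change of 1.75. The scaffold was thus the most abundant of the 4 in sham cord and changed least on the log2 scale.

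The spindle checkpoint genes proper were all 4 higher, with a median log2 change of 2.20. Bub1, a kinetochore kinase that recruits other checkpoint proteins (chromosome 2, 127801122 to 127831865, minus strand), had 10.2, 12.5 and 8.37 FPKM in SCI, against 0.10, 0.06 and 0.15 FPKM in sham. Its ratio of means, 100.1, was the highest of the 44 computed, over a sham level so low that the ratio is imprecise. The log2 change was 3.35 (SE 0.16, limma adjusted p = 1.3e-05). Ttk (Mps1, the kinase that starts checkpoint signalling) had 3.82, 5.46 and 3.70 FPKM in SCI, against 0.00, 0.19 and 0.24 FPKM in sham, a log2 change of 2.21 (SE 0.18, limma adjusted p = 9.8e-05). Both kinases were near 0 in every sham library. The members that form the inhibitor of Cdc20 were already present in sham cord. Bub1b (BubR1) averaged 16.6 ± 3.57 FPKM in SCI and 2.86 ± 0.868 FPKM in sham, a log2 change of 2.20, and Mad2l1 (Mad2) averaged 6.82 ± 0.783 FPKM in SCI and 2.21 ± 0.144 FPKM in sham, a log2 change of 1.28.

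At the step into anaphase, 3 genes were higher and 1 was lower. Ube2c, the ubiquitin-conjugating enzyme that works with the anaphase-promoting complex (chromosome 2, 164769898 to 164778822, plus strand), had 19.6, 25.8 and 17.7 FPKM in SCI, against 0.44, 0.33 and 0.60 FPKM in sham. Its log2 change was 3.91 (SE 0.16, limma adjusted p = 1.2e-05). Cdc20, the activator of that complex and the target of the checkpoint, had 32.1, 37.3 and 25.0 FPKM in SCI, against 1.41, 1.63 and 0.57 FPKM in sham, a log2 change of 3.90 (SE 0.22, limma adjusted p = 2.6e-05). Both were among the strongest changes of the 47 genes. Espl1 encodes separase, the protease that cuts cohesin, and averaged 4.25 ± 0.637 FPKM in SCI and 0.377 ± 0.0851 FPKM in sham, a log2 change of 1.93.

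Pttg1, or securin, the inhibitor that is bound to separase until anaphase (chromosome 11, 43420250 to 43426251, minus strand), went the other way. It had 20.8, 21.2 and 22.9 FPKM in SCI, against 33.7, 32.4 and 33.3 FPKM in sham. The groups did not overlap, and the libraries of each group lay close together. The log2 change was -0.60 (SE 0.07, limma adjusted p = 5.8e-04), and it ran from -0.64 to -0.57 when each library was left out in turn. In sham cord Pttg1 was the most abundant of the 47 genes, at 33.2 ± 0.671 FPKM, with Cdc25b next at 8.29. In SCI it averaged 21.6 ± 1.13 FPKM and stood among the other members. Securin and separase therefore differed in sign within the same libraries, although Espl1 met the level filter only through the SCI libraries. Pttg1 has no CCAAT or CHR letters in its RefSeq window, and neither have the risers Birc5, Ncaph, Nusap1, Nuf2, Mybl2, Mad2l1 and Plk4.

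All 7 kinetochore and centromere genes were higher, with log2 changes of 2.10 to 2.89. All 7 were under 1 FPKM in every sham library, so they met the level filter only through the SCI libraries and had to differ. The sizes depend on the pseudocount: with 0.1 they ran from 3.22 (Nuf2) to 4.30 (Spc25). Spc25, a subunit of the Ndc80 complex that holds microtubules, had 8.45, 10.5 and 9.17 FPKM in SCI, against 0.28, 0.31 and 0.61 FPKM in sham, a log2 change of 2.89 (SE 0.14, limma adjusted p = 1.6e-05). Cenpa, the histone variant that marks the centromere, had 9.29, 12.9 and 8.48 FPKM in SCI, against 0.56, 0.64 and 0.46 FPKM in sham, a log2 change of 2.84 (SE 0.16, limma adjusted p = 2.6e-05). Under the level filter the groups of these genes could not overlap. The other subunits of the Ndc80 complex were Spc24, at 9.23 ± 1.07 FPKM in SCI and 0.763 ± 0.0404 FPKM in sham, Nuf2, at 8.72 ± 1.07 FPKM in SCI and 0.850 ± 0.156 FPKM in sham, and Ndc80 itself. Ndc80 averaged 3.88 ± 0.635 FPKM in SCI and 0.130 ± 0.0900 FPKM in sham. In SCI, 3 of the 4 subunits stood at 8.72 to 9.38 FPKM and Ndc80 was lower. The log2 changes were 2.53 for Spc24, 2.39 for Nuf2 and 2.10 for Ndc80. With a pseudocount of 0.1 they were 3.43, 3.22 and 4.18, so Ndc80 then had the largest of the 3. Cenpe, a kinetochore motor, and Cenpf, a large protein of the outer kinetochore, averaged 6.81 ± 1.86 and 4.52 ± 0.835 FPKM in SCI, against 0.443 ± 0.175 and 0.143 ± 0.0839 FPKM in sham, with log2 changes of 2.42 and 2.26.

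Among the spindle assembly genes all 5 were higher. Tpx2, which activates Aurora A and nucleates microtubules around chromosomes, had 25.5, 31.9 and 22.8 FPKM in SCI, against 0.87, 1.06 and 1.64 FPKM in sham, a log2 change of 3.66 (SE 0.17, limma adjusted p = 1.3e-05). Hmmr, a microtubule-associated protein of the spindle that also binds hyaluronan, had 7.47, 12.1 and 7.18 FPKM in SCI, against 0.04, 0.32 and 0.22 FPKM in sham, a log2 change of 3.03 (SE 0.21, limma adjusted p = 5.2e-05). Hmmr had the widest spread among the SCI libraries of all 47 genes, with a coefficient of variation of 31.1%. Ckap2, which stabilises spindle microtubules, averaged 17.3 ± 2.41 FPKM in SCI and 1.52 ± 0.191 FPKM in sham (log2 change 2.85), and was the only riser with its highest value in SCI replicate 3. Nusap1, which bundles microtubules near chromosomes, averaged 13.2 ± 1.80 FPKM in SCI and 1.65 ± 0.243 FPKM in sham (log2 change 2.42). Aspm, a spindle pole protein known for microcephaly when mutated, averaged 3.38 ± 0.461 FPKM in SCI and 0.133 ± 0.0208 FPKM in sham (log2 change 1.95).

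The 3 genes of the central spindle and of cytokinesis with a row were higher. Prc1, which bundles antiparallel microtubules at the central spindle, had 14.9, 19.7 and 15.9 FPKM in SCI, against 1.15, 1.12 and 1.80 FPKM in sham, a log2 change of 2.92 (SE 0.15, limma adjusted p = 1.9e-05). Ect2, the exchange factor that activates RhoA at the cleavage furrow, had 8.28, 10.1 and 7.27 FPKM in SCI, against 0.66, 0.72 and 0.72 FPKM in sham, a log2 change of 2.48 (SE 0.14, limma adjusted p = 2.2e-05). For both genes the SCI libraries lay far above the sham libraries. Racgap1, of the centralspindlin complex that recruits Ect2, averaged 18.7 ± 0.989 FPKM in SCI and 6.04 ± 0.486 FPKM in sham, a log2 change of 1.48. The anillin gene Anln itself is not on the list of 48. It had 38.5, 26.6 and 33.3 FPKM in SCI, against 33.0, 37.0 and 40.0 FPKM in sham, and did not pass (log2 change -0.17, SE 0.14, limma adjusted p = 0.34).

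All 5 condensin genes were higher. Ncapg and Ncaph, regulatory subunits of condensin I, had the largest changes. Ncapg had 5.20, 6.44 and 4.53 FPKM in SCI, against 0.15, 0.09 and 0.13 FPKM in sham, a log2 change of 2.50 (SE 0.15, limma adjusted p = 3.1e-05). Ncaph had 9.18, 11.2 and 9.07 FPKM in SCI, against 0.84, 0.99 and 1.18 FPKM in sham, a log2 change of 2.43 (SE 0.13, limma adjusted p = 1.9e-05). The ATPases shared by condensin I and II started higher. Smc2 averaged 19.9 ± 4.31 FPKM in SCI and 4.13 ± 0.0513 FPKM in sham (log2 change 2.00), and Smc4 averaged 24.4 ± 4.25 FPKM in SCI and 5.55 ± 0.623 FPKM in sham (log2 change 1.94). Ncapd2, the remaining condensin I subunit, averaged 23.1 ± 2.03 FPKM in SCI and 7.97 ± 1.15 FPKM in sham (log2 change 1.43). The order of the log2 changes ran against the order of the sham levels in this complex.

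Both transcription factors of the list were higher. Foxm1, a forkhead factor that acts with MuvB on late cell cycle promoters, had 10.8, 13.1 and 11.0 FPKM in SCI, against 0.95, 0.64 and 0.69 FPKM in sham, a log2 change of 2.84 (SE 0.13, limma adjusted p = 1.2e-05). Mybl2, or B-Myb, which joins MuvB in dividing cells, had 5.36, 5.46 and 3.80 FPKM in SCI, against 0.55, 0.51 and 0.39 FPKM in sham, a log2 change of 1.97 (SE 0.16, limma adjusted p = 9.3e-05). All sham libraries of both genes were under 1 FPKM. Both met the level filter only through the SCI libraries, so their groups could not overlap.

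Within the SCI group the genes kept a common order of libraries. SCI replicate 2 was the highest of the 3 for 45 of the 47 genes, against 60.2% of the 4653 genes called higher, and the exceptions were Ckap2 and Pttg1. SCI replicate 3 was the lowest for 36 and SCI replicate 1 for 11. The level in SCI replicate 2 over the mean of the other SCI libraries had a median of 1.31 over the 46 risers, against 1.09 over all genes called higher. The coefficient of variation among SCI libraries had a median of 17.8% and 10.8% for the same sets of genes. Every one of the 46 rises and the fall of Pttg1 was still called without SCI replicate 2, and the ratio of summed levels was then 5.99.

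Markers of several cell types also differed between the groups. Their call counts stand beside 26.7% higher and 30.8% lower among all genes tested, and the counts of ependymal markers lie near these shares. Microglia markers summed to 678 to 834 FPKM in SCI and 196 to 211 FPKM in sham, with 7 of 8 higher. Monocyte and macrophage markers summed to 1606 to 2806 FPKM in SCI and 128 to 177 FPKM in sham, with 10 of 10 higher. Of these 10, 7 met the level filter only through the SCI libraries and had to differ. Neutrophil markers summed to 140 to 676 FPKM in SCI and 17.7 to 46.3 FPKM in sham, with all 7 tested of 10 higher. Of those 7, 2 met the filter only through the SCI libraries. SCI replicate 2 was the highest SCI library in all 3 of these sums. The same held for the sums of erythroid, fibroblast and meningeal, Schwann cell, and T and B cell markers. In the sums of the remaining marker lists SCI replicate 1 or 3 was the highest. Among the neutrophil markers Ly6g was at most 0.93 FPKM in any library. Elane, a protease made by neutrophil precursors, had 1.09, 1.92 and 0.00 FPKM in SCI, against 0.33, 0.13 and 0.00 FPKM in sham. Mpo, of the same precursors, had 1.07, 2.67 and 0.42 FPKM in SCI, against 0.33, 0.19 and 0.07 FPKM in sham, so its groups did not overlap. None of these 3 genes met the level filter. Erythroid markers summed to 1529 to 45086 FPKM in SCI and 805 to 930 FPKM in sham, with 3 of 5 tested higher, while Klf1, the factor of erythroid precursors, was at most 0.39 FPKM. Of the cord's own cells, endothelial markers were higher in 8 of 8 (284 to 334 FPKM in SCI and 115 to 128 FPKM in sham), and fibroblast and meningeal markers in 6 of 7 (295 to 598 FPKM in SCI and 47.7 to 113 FPKM in sham). Astrocyte markers split into 4 higher and 4 lower, with sums of 3831 to 4040 FPKM in SCI and 2239 to 2440 FPKM in sham. Oligodendrocyte precursor markers gave 4 higher, 1 lower and 3 not past, with sums of 201 to 252 FPKM in SCI and 212 to 227 FPKM in sham. Ependymal markers gave 3 of each call; their sums of 798 to 1101 FPKM in SCI and 115 to 151 FPKM in sham were mostly Vim and Nes, which other reactive cells also express. T and B cell markers summed to 4.40 to 6.93 FPKM in SCI and 5.14 to 7.37 FPKM in sham, with Cd3e, Cd4 and Cd8a at 0.30 FPKM or less throughout and Cd79a at most 1.55 FPKM, in SCI replicate 2. Trac, the only marker of that list that was tested, had 3.05, 2.97 and 4.54 FPKM in SCI, against 3.50, 4.62 and 5.85 FPKM in sham, and did not pass (log2 change -0.32, limma adjusted p = 0.20). Markers of myelinating oligodendrocytes were lower in 6 of 8 (4414 to 5542 FPKM in SCI and 7542 to 8184 FPKM in sham), and those of Schwann cells in 4 of 5 (266 to 492 FPKM in SCI and 765 to 2131 FPKM in sham). Pericyte and smooth muscle markers gave 3 higher, 1 lower and 3 not past, with sums of 251 to 311 FPKM in SCI and 125 to 127 FPKM in sham.

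SCI replicate 3, the lowest SCI library for 36 of the mitotic genes, stood apart in several markers of tissue outside the cord. Skeletal muscle and bone markers summed to 39.9, 13.8 and 358 FPKM in SCI, against 27.6, 14.9 and 88.4 FPKM in sham, and sensory ganglion markers to 60.5, 46.9 and 188 FPKM in SCI, against 140, 173 and 136 FPKM in sham. The ganglion sum of SCI replicate 3 was mostly Calca (78.5 FPKM) and Prph (74.5 FPKM), and Prph was below all sham libraries (81.0 to 105.8 FPKM). Avil had 17.3 FPKM in SCI replicate 3 and at most 0.50 FPKM in any other library. Scn10a, a sodium channel of sensory neurons, had 6.60 FPKM in SCI replicate 3 and was listed at 0 in the other 5 libraries. Without SCI replicate 3 all 47 calls held, and the ratio of summed levels was 6.96. The part of each cell type or tissue in the rise of the mitotic genes was not tested.

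The other genes of the cell cycle were read from 10 lists with 151 measured genes, of which 111 were higher, 9 lower and 31 did not pass, against 26.7% higher and 30.8% lower among all genes tested. Of the 151, 36 met the level filter only through the SCI libraries and had to differ, as 26 of the 47 mitotic genes did, so medians over the whole lists are not set against each other. These were 11 of 21 other spindle genes, 7 of 20 centromere network genes, 5 of 28 replication genes and 4 of 13 cohesin genes. A further 4 of 16 were checkpoint regulators, 3 of 13 G1 genes and 2 of 12 inhibitors and pocket proteins, with none in the remaining lists. Among genes at 1 FPKM or more in all 3 sham libraries, 62 of 102 on the other lists were higher, 9 lower and 31 did not pass, with a median log2 change of 0.45, beside 1.94 over the 15 mitotic genes of that kind. Here the most abundant gene of a list is the one with the highest mean over all 6 libraries. The lists differed in how uniformly their genes were higher, from DNA replication, where all 28 were higher, to the subunits of the anaphase-promoting complex, where 10 of 15 did not pass.

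**Figure D4:**
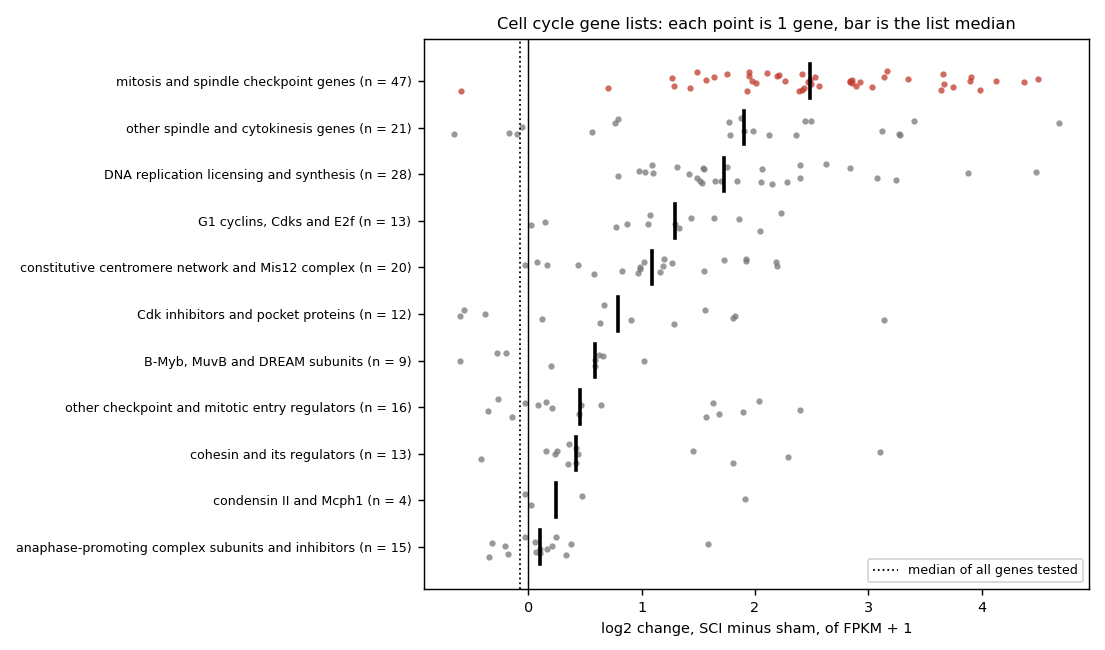
Log2 change of FPKM + 1, SCI minus sham, for each gene of the mitotic list (red) and of 10 other cell cycle lists (grey), 1 list per line with its median as a black bar; the dotted line is the median of all genes tested. The medians, such as 2.48 for the mitotic list and 0.10 for the anaphase-promoting complex subunits, are not set against each other. In these lists 26 of 47 and 0 of 15 genes met the level filter only through the SCI libraries.

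DNA replication genes had a median log2 change of 1.73. Rrm2, the ribonucleotide reductase subunit made in S phase, had the largest change, with 46.5, 62.7 and 42.9 FPKM in SCI, against 1.23, 1.55 and 1.10 FPKM in sham (log2 change 4.48). Uhrf1, which maintains DNA methylation behind the fork, had a log2 change of 3.88, and Pcna, the sliding clamp and the most abundant of the list, one of 1.65. Of the G1 cyclins, Cdks and E2f genes, 11 of 13 were higher and 2 did not pass. Ccnd1 (cyclin D1) had 124.6, 107.5 and 100.3 FPKM in SCI, against 23.1, 22.7 and 22.4 FPKM in sham (log2 change 2.23), and E2f8, a repressor of E2F targets, had a log2 change of 2.04. No gene of either list was lower in SCI.

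The inhibitors of Cdks did not move as one. Of 12 inhibitors and pocket proteins, 8 were higher, 2 lower and 2 did not pass. Cdkn2c, the p18 inhibitor of Cdk4 and Cdk6, had 16.5, 16.3 and 16.0 FPKM in SCI, against 1.15, 1.00 and 0.76 FPKM in sham (log2 change 3.14), and Cdkn3, a phosphatase of Cdks, had a log2 change of 1.82. Cdkn1a, the p21 inhibitor and the most abundant of the list in SCI, averaged 61.5 ± 4.73 FPKM in SCI and 20.6 ± 4.88 FPKM in sham (log2 change 1.56). Cdkn1b, the p27 inhibitor typical of resting cells, had 18.4, 18.3 and 18.3 FPKM in SCI, against 30.8, 23.3 and 29.5 FPKM in sham, a log2 change of -0.57 (SE 0.11, limma adjusted p = 0.0042). Cdkn2d, the p19 inhibitor and the most abundant over all 6 libraries, did not pass (log2 change 0.12), although without SCI replicate 2 it did (log2 change 0.25, limma adjusted p = 0.014). Rbl2 (p130) had a log2 change of -0.38, with a limma adjusted p of 0.038 that became 0.076, 0.097 and 0.10 without sham replicates 1, 2 and 3.

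The subunits of the anaphase-promoting complex changed far less than its activator Cdc20. Its partner enzyme Ube2c met the level filter only through the SCI libraries and is not set beside them. Of 15 subunits and inhibitors, 3 were higher, 2 lower and 10 did not pass, with a median log2 change of 0.10. Under median-ratio scaling 8 of them were higher, 1 lower and 6 did not pass, and without SCI replicate 2 the counts were 5, 1 and 9. Fbxo5 (Emi1, an inhibitor of the complex) had a log2 change of 1.59 and Cdc16 one of 0.38, and Anapc5, the most abundant, one of 0.10 that did not pass with FPKM as deposited. Anapc13 was lower (log2 change -0.35). Anapc11 had a log2 change of -0.32 and a limma adjusted p of 0.034, which became 0.079 and 0.067 without SCI replicates 1 and 2 and 0.11 and 0.061 without sham replicates 1 and 3.

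Cohesin and its regulators gave 10 higher, 1 lower and 2 not past, with a median log2 change of 0.42. The changes were largest for Cdca5 (sororin, which keeps sisters together, log2 change 3.10) and Sgo1 (shugoshin, which guards centromeric cohesin, 2.29). The abundant core subunit Rad21 had one of 0.25, and Pds5b was lower (-0.42). In the inner centromere network and the Mis12 complex 17 of 20 were higher and 3 did not pass, with a median log2 change of 1.09. Knl1, the scaffold that binds Bub1, and Cenph each had a log2 change of 2.19, whereas Hjurp, the chaperone of Cenpa and the most abundant of the list, had 38.7, 40.3 and 39.2 FPKM in SCI, against 39.4, 42.6 and 39.2 FPKM in sham (log2 change -0.03, limma adjusted p = 0.70). Cenpa and its chaperone thus had different calls, but Cenpa met the level filter only through the SCI libraries and had to differ.

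Of 16 other regulators of the checkpoint and of mitotic entry, 9 were higher, 1 lower and 6 did not pass. Trip13, which dismantles the checkpoint complex, had a log2 change of 2.39 and Kntc1, which brings Mad1 and Mad2 to kinetochores, one of 2.03. Ensa, an inhibitor of a mitotic phosphatase and the most abundant of the list, had one of -0.27 that did not pass (limma adjusted p = 0.080), although without SCI replicate 2 it did (log2 change -0.14, limma adjusted p = 0.045). Wee1, the kinase that restrains Cdk1, had a log2 change of -0.35, and its limma adjusted p of 0.048 became 0.054 without SCI replicate 2 and 0.095, 0.14 and 0.078 without sham replicates 1, 2 and 3. Among 21 other spindle and cytokinesis genes, 17 were higher, 1 lower and 3 did not pass, with a median log2 change of 1.90. Of the 21, 11 met the level filter only through the SCI libraries and had to differ, Pbk among them. Pbk, a mitotic kinase, had 34.8, 36.2 and 34.8 FPKM in SCI, against 0.24, 0.23 and 0.84 FPKM in sham (log2 change 4.68), a larger change than that of any of the 47 genes. Ckap2l, a relative of Ckap2, had a log2 change of 3.40, and Ckap5, the most abundant of that list, did not pass (-0.10). Cit, the citron kinase of the midbody, was lower, at 8.42, 7.99 and 8.32 FPKM in SCI, against 13.9, 13.6 and 13.1 FPKM in sham (log2 change -0.65).

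The 9 subunits of MuvB and DREAM were at 1 FPKM or more in all 3 sham libraries. Foxm1 and Mybl2 met the level filter only through the SCI libraries, so the changes are not set against each other. Of 9 measured, 6 were higher, 2 lower and 1 did not pass, with a median log2 change of 0.58. Tfdp1, the partner of E2F factors, had a log2 change of 1.02 and Lin9, of the MuvB core, one of 0.66. Lin52, also of that core, was lower (-0.60, limma adjusted p = 0.0016). The call of Rbbp4, the most abundant, was marginal (log2 change 0.20, limma adjusted p = 0.049) and ended without SCI replicates 1 and 3 and without each sham replicate, at limma adjusted p of 0.14, 0.10, 0.15, 0.14 and 0.063. Tfdp2 had a log2 change of -0.27 and a limma adjusted p of 0.032, which was 0.050 to 0.093 with any library left out.

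A last comparison set 6 mitotic subunits beside a partner in the same machine that is also used outside mitosis or by another complex. For each pair, the log2 ratio of the levels (FPKM + 1) was taken in every library. With 3 libraries against 3, the exact two-sided permutation test cannot go below 0.1, and all 6 pairs gave this p, 0.1 after adjustment over the 6 pairs as well. Ncapg met the level filter only through the SCI libraries and had to differ, so the p of its pair carries no information. Fzr1 (Cdh1), the activator that takes over from Cdc20 at mitotic exit and in G1, had 21.4, 18.1 and 19.7 FPKM in SCI, against 24.3, 23.8 and 20.8 FPKM in sham. The Cdc20 to Fzr1 log2 ratio was 0.56, 1.01 and 0.33 in SCI, against -3.39, -3.23 and -3.80 in sham, a difference of 4.11. Cdc20 was thus above Fzr1 in all SCI libraries and below it in all sham libraries.

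In the checkpoint, Bub3, which binds Bub1 and BubR1, had 26.2, 24.0 and 26.0 FPKM in SCI, against 26.7, 25.6 and 25.3 FPKM in sham (log2 change -0.03, limma adjusted p = 0.78). The Bub1b to Bub3 log2 ratio averaged -0.60 ± 0.35 in SCI and -2.82 ± 0.32 in sham (SD, n = 3 each), a difference of 2.22. Mad1l1, which carries Mad2 to the kinetochore, did not pass (log2 change 0.09), and the Mad2l1 to Mad1l1 log2 ratio averaged -1.17 ± 0.31 in SCI and -2.36 ± 0.06 in sham, a difference of 1.19. In both pairs the checkpoint member stayed below its partner in every library but was closer to it in SCI.

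Condensin II uses Smc2 and Smc4 with its own subunits. Of its 3 subunits and Mcph1, which holds condensin II back until mitosis, 2 were higher and 2 did not pass. Mcph1 had a log2 change of 0.47. Ncaph2 had 59.8, 53.9 and 58.8 FPKM in SCI, against 59.0, 56.8 and 60.6 FPKM in sham, and did not pass (log2 change -0.03), and nor did Ncapd3 (log2 change 0.02). Ncapg2 rose, with 8.71, 11.0 and 8.39 FPKM in SCI, against 1.89, 1.72 and 1.62 FPKM in sham (log2 change 1.91). The condensin I to condensin II log2 ratio differed by 2.46 for Ncaph and Ncaph2, by 1.40 for Ncapd2 and Ncapd3 and by 0.59 for Ncapg and Ncapg2, SCI minus sham. These sizes depend on the pseudocount because Ncapg was near 0 in sham: with 0.1 in place of 1, an alternative added after seeing the data, the differences were 3.21 for the H pair, 1.50 for the D pair and 2.26 for the G pair, so the order of the D and G pairs turned. Ncapg2 was higher, while the H and D subunits of condensin II were not called. Ncapg met the level filter only through the SCI libraries and had to differ, so its direction is not set beside that of Ncapg2.

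**Figure D5:**
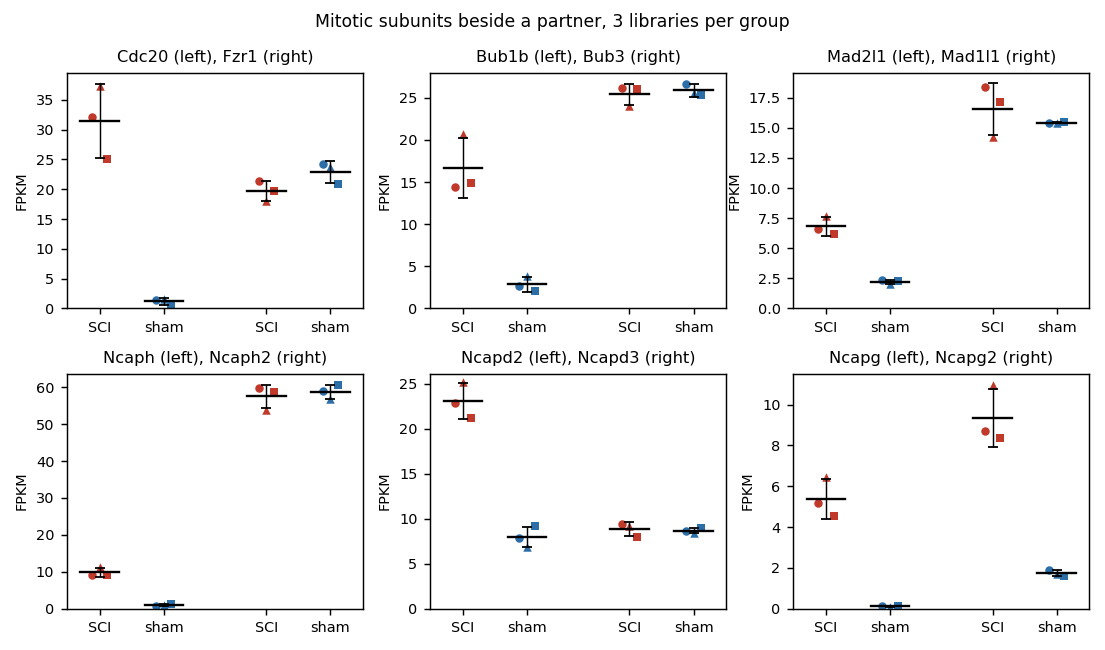
FPKM of 6 mitotic subunits (left of each panel) and a partner (right), with SCI in red and sham in blue, 3 libraries each; horizontal bars are means and vertical bars the SD. The mitotic subunit is higher in SCI in all panels, while of the partners Ncapg2 alone rises. Ncapg met the level filter only through the SCI libraries.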

How the data were processed

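Poly(A)-selected, strand-marked RNA-seq libraries with molecular identifiers were made from 3 SCI and 3 sham samples, per the labels' protocols. FPKM per gene and library were deposited by the authors. The submitters' processing notes list, without roles, StringTie 1.3.4d, HISAT2 2.0.4, cutadapt 1.9, edgeR, DESeq2, UMI-tools and the build mm9; the strand setting of the quantification is not given in the sources used here. Gene coordinates in the files match GRCm38: 91.7% of 36502 shared identifiers had the same position in GENCODE M21. FPKM keep no read counts, no common read step was found, and depth is unknown.

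Here limma (3.58.1, R 4.3.3; mean-variance trend on) was fitted to log2(FPKM + 1) of all 6 libraries with group as its term, for the 17435 genes that met the filter. P-values were adjusted over all of these, two-sided. A log2 change is SCI minus sham and understates the change of low genes. The fit was checked on simulated data. Replicate numbers did not pair the libraries: deviations of same-numbered libraries correlated at -0.0076, -0.0385 and 0.022. The members and lists were chosen with earlier results of these data known. All members are named, with every library's value for the 2 with the largest change per role, for those lower and for the 3 most abundant; of each other list, the 2 largest changes, the most abundant gene and up to 3 lower genes are named, and 7 genes (Anln, Fzr1, Bub3, Mad1l1, Ncapd3, Ncapg2, Cdkn1a) were added outside the rule, Cdkn1a after its values were seen. Of 155 names on the other lists, 151 had a row. Promoter letters come from RefSeq, GRCm38.p6. Overlapping genes at 1 FPKM or more, which could share reads, touch 9 members: Cdc25b, Nusap1, Ncapg, Foxm1, Cdca8, Prc1, Ccna2, Cdc20 and Ube2c.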

Additional observations from a re-analysis of the deposited data

How the results depend on the processing

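For the 47 mitotic genes, each of 14 other settings (a pseudocount of 0.1, no filter or a filter on the mean, 3 other scalings, a replicate block, no mean-variance trend, and each library left out) kept the direction and the side of the threshold of every gene, 658 comparisons in all: 46 higher and 1 lower throughout. Their median log2 change depends on the pseudocount and was 3.76 with 0.1. The ratio of summed levels was 5.99 to 6.96 with a library left out and 6.36 to 7.06 under other scalings, which moved the median of all genes by -0.05 to 0.08. Of the other cell cycle lists, the 9 lower calls became 5 with no filter on low values and ranged from 5 (without sham replicate 1 or 3) to 9 with a library left out. For single genes of these lists, 60 comparisons lost a call, 21 gained one, 0 reversed and 2031 stayed as they were. Besides the left-out libraries given above, the calls of Rbl2, Anapc11, Wee1, Rbbp4 and Tfdp2 ended with no filter on low values, at limma adjusted p of 0.076, 0.059, 0.091, 0.052 and 0.052. Those of Rbl2, Wee1, Rbbp4 and Tfdp2 also ended under the replicate block (0.053, 0.085, 0.090 and 0.068), those of Anapc11, Wee1 and Tfdp2 under median-ratio scaling (0.053, 0.064 and 0.069), and those of Wee1 and Rbbp4 without the mean-variance trend (0.060 and 0.081). With the replicate number as a block, calls were 46 higher and 1 lower for the mitotic genes, 109 higher and 6 lower for the other lists, and 4398 higher and 5045 lower over all genes, against 4653 and 5371 without it; the numbers do not mark a shared animal, and the check of pairing was negative. A filtered level of 1 FPKM and an unknown depth limit the precision of sham values near 0, and with groups of 3 no library could be tested as an outlier.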
